A study of Homo sapiens with 6 samples.

Results

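The 10 genes described here encode MHC class II chains, the proteins that load them and the regulator that switches them on: CIITA, CD74, HLA-DRA, HLA-DPA1, HLA-DQA1, HLA-DQB1, HLA-DMA, HLA-DMB, HLA-DOA and HLA-DOB. They were followed by every probe set (a group of short probes for a single transcript) that the platform annotation pairs with exactly 1 gene symbol equal to one of them. This gave 30 of the 54613 tested probe sets, and all 10 genes were represented, among 19775 genes in all. A further 4 probe sets name a member together with other genes and were left aside. The cells were BL-2, an established human line grown from a Burkitt lymphoma, a tumour whose cells resemble germinal centre B cells. Cells labelled as having no treatment were compared with cells given lipopolysaccharide (LPS), the glycolipid that coats Gram-negative bacteria, for 6 h, and the design asks what differs after LPS. Each group had 3 samples, each on its own Affymetrix array of total RNA; the dose of LPS and what the controls received in its place are not given in the sources used here. All cells are of a single line. Whether samples of a group were grown separately is not stated in the labels, so p-values reflect only how these samples scatter, part of which may be technical.

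MHC class II molecules are pairs of an alpha and a beta chain that show peptides from endosomes to CD4 T cells. HLA-DR, HLA-DP and HLA-DQ are the classical pairs at the cell surface. CD74, the invariant chain, occupies the groove of new class II molecules and guides them to endosomes, where HLA-DM exchanges its remnant for peptides and HLA-DO restrains HLA-DM, mostly in B cells. CIITA binds no DNA itself and acts through RFX, CREB and NF-Y proteins on the X and Y boxes that lie before class II genes. B cells make class II molecules without stimulation, and plasma cells shut CIITA off.

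Letters that match cores of the X and Y boxes were searched for in the promoters of the genes whose levels are described next. A missing match does not show that a gene lacks a box. In the RefSeq promoter table (GRCh38.p14, 250 bases before to 50 bases after each gene's start) 8 of the 10 genes had an entry, with 9 entries in all, and none was found for HLA-DRA and CIITA. The letters AGNNAC (core of the X box, where N is any base) followed on the same strand by ATTGG (core of the Y box), with starts 26 to 42 bases apart, stood on the gene's strand in 4 of the 9 entries, against 1.34% of all 35116 promoters. On either strand the share of all promoters was 2.63%. Of the other class II chains, HLA-DRB1 and HLA-DRB5 held the pair on the gene's strand. Each core alone is common: on both strands AGNNAC was in 86.5% and ATTGG in 34.6% of all promoters. The 4 stretches with the pair are given 5′ to 3′ on the gene's strand, all before the gene's start, with both cores in capitals. HLA-DOA holds a further match of the X core, which is left in lower case. HLA-DOB follows them because its difference had the other sign. Its Y core ATTGG is in capitals, as is ATGCAAA, the reverse complement of TTTGCAT, a core of the octamer bound by OCT proteins.
HLA-DQA1, chr6:32637290-32637352, plus strand: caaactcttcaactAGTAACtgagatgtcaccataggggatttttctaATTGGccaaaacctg
HLA-DQB1, chr6:32666731-32666792, minus strand: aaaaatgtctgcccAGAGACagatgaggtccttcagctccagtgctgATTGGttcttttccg
HLA-DMA, chr6:32953162-32953224, minus strand: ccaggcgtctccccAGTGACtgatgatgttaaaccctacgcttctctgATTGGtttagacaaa
HLA-DOA, chr6:33009644-33009706, minus strand: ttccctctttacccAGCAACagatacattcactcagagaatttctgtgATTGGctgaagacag
HLA-DOB, chr6:32817086-32817148, minus strand: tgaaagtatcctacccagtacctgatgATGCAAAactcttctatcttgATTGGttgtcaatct
The starts of both cores were 33 bases apart in HLA-DQB1 and 34 bases apart in HLA-DQA1, HLA-DMA and HLA-DOA. The further match in HLA-DOA starts 28 bases before the same Y core, so that this entry holds 2 pairs by the letters searched. The octamer core TTTGCAT, searched on both strands, was found in the entry of HLA-DOB, where it does not overlap the Y core, in none of the other 8 entries, and in 4.46% of all promoters. HLA-DRA and CIITA, without an entry, could not be searched. Whether the octamer core bears on the LPS difference of HLA-DOB was not tested. These matches describe letters within short windows; no binding was measured.

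After LPS, the chains of HLA-DQ and their regulator CIITA were higher, and most other class II genes lay in the same direction without passing the test. By the brightest probe set of each gene 3 of 10 genes rose, HLA-DQB1, HLA-DQA1 and CIITA, and HLA-DPA1 rose by another of its probe sets. No gene fell past the threshold of an adjusted p of 0.05, and 8 of the 10 had an unadjusted p under 0.05, HLA-DOB in the downward direction, where 9.56% of all genes had one. By its brightest probe set HLA-DOB was lower in all 3 LPS samples than in every control. CD74 differed by 0.02 on the log2 scale. All levels are log2 values as deposited, on each probe set's own scale, so levels of different genes are not compared. A bulk measurement cannot tell a change in all cells from a change in a share of them.

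Of the 30 probe sets, 11 passed limma's moderated test (p adjusted by Benjamini-Hochberg over the whole table), all of them higher, where 0.264% of all tested probe sets passed and 0.13% passed in the upward direction. Of the 19775 genes, 0.389% passed by their brightest probe set, 0.182% higher and 0.207% lower. The LPS values lay above all controls in 17 member probe sets (7% of all tested) and below them in 1 (6.38% of all tested), and the groups overlapped in 12; over all tested probe sets 13.4% did not overlap. By brightest probe sets the groups did not overlap in 7 of the 10 genes and in 15.7% of all genes. The median LPS difference was 0.33 over the 10 genes and 0.0016 over all genes, each by its brightest probe set. Over probe sets it was 0.28 for the members and 0.0029 for all tested.

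**Figure D1:**
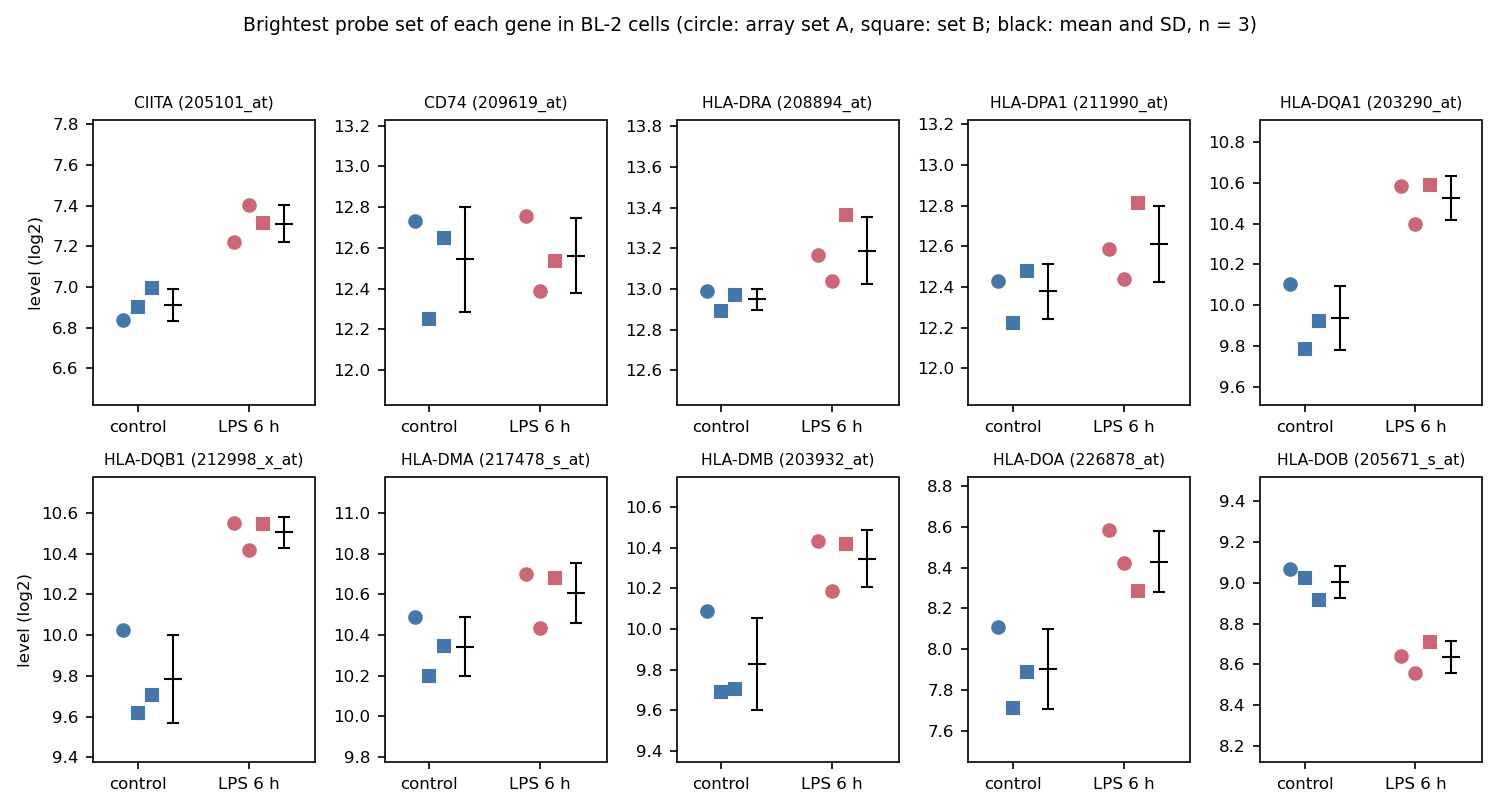
Level (log2) of the brightest probe set of each of the 10 genes on every array, with 3 control (blue) and 3 LPS (red) arrays, circles for array set A and squares for array set B, and the mean and SD of each group in black; every panel spans 1.4 log2 units at its own level. The groups do not overlap in 7 of the 10 genes, with LPS higher in 6 and lower in HLA-DOB.

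The arrays parted into 2 sets by the level of the 18 probe sets for spiked bacterial and phage RNA, the hybridisation controls, with a gap of 0.22 on the log2 scale between them. Set A held control 1, LPS 1 and LPS 2, and set B held control 2, control 3 and LPS 3. Array medians ran from 6.42 to 6.47, correlations between arrays over all tested probe sets from 0.992 to 0.997, and no pair of arrays shared an identical value (0 shared). The order of the arrays in the class II genes did not follow the sets alone. Control 1 of set A was the highest control in 8 of the 10 genes and control 2 of set B the lowest in 8, but LPS 2, the lowest LPS array in 8, is in set A. Differences are given within each set too; these rest on 1 control in set A and on 1 LPS array in set B. In a fit with the array set as a block, called the set-blocked fit from here on, 7 of the 10 genes passed (2.02% of all genes) and 15 of the 30 probe sets (1.34% of all tested), 14 of them higher (0.628% of all tested) and 1 lower (0.716%). What distinguishes the sets was not tested.

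The labelled cell type was checked against lists of markers. The 7 measured B lineage markers, among them MS4A1 (CD20) and CD79A, had control means from 8.31 to 13.05 and the 6 measured germinal centre markers from 8.12 to 11.29. Monocyte and macrophage markers (9 measured), which other class II-bearing cells would carry, lay between 6.00 and 6.70 in control means, T and NK cell markers (10 measured) between 5.92 and 6.95 and erythroid and platelet markers (5 measured) between 5.91 and 6.73, close to the array medians. Of 7 dendritic cell markers 6 were at such levels, and CD1C, which B cells can also express, stood at 7.82 in controls and 7.97 in LPS. The 5 measured plasma cell markers had mixed control means, from 6.37 for SDC1 to 9.92 for MZB1 and 11.03 for TNFRSF17. By limma's test 0 members of the non-B lists and of the plasma cell markers passed, and 0 had an unadjusted p under 0.05. The summed linear signal of the monocyte list ran from 663 to 697 in controls and from 659 to 675 in LPS, and that of the dendritic cell list from 670 to 729 and from 699 to 732. Both B cell lists held members that were lower in LPS. Of the 6 measured germinal centre markers 1 passed, MYBL1, and 5 did not, where 0.389% of all genes passed. MYBL1 fell by 0.56 (adjusted p = 0.0288), and 1 of its 3 probe sets passed. All 6 differences were below 0, with a median of -0.32. In the set-blocked fit 3 of the 6 passed, MYBL1, CD38 and BCL6, all lower, where 2.02% of all genes passed. The summed linear signal of this list was 7543 to 7662 in controls and 5773 to 6686 in LPS. Of the 7 B lineage markers none passed, 3 had an unadjusted p under 0.05, and 5 differences were below 0, with a median of -0.18. CD79A, a signalling chain of the B cell receptor, read 10.70, 10.70 and 10.79 in controls and 10.33, 10.28 and 10.43 in LPS, a difference of -0.38 (adjusted p = 0.133; 0.0103 in the set-blocked fit). The summed signal of the B lineage list overlapped between the groups, at 14129 to 15508.5 in controls and 13245 to 14885 in LPS. Its brightest member, MS4A1, weighs most in this sum and differed by -0.07. By single genes CD79A, CD22 and BLK lay below all controls in LPS, and MS4A1, CD79B, PAX5 and CD72 overlapped. The part of either list in the class II differences was not tested.

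CIITA, the transactivator of class II genes, rose. By its brightest probe set (205101_at) it stood at 6.84, 6.90 and 6.99 in controls 1 to 3 and at 7.22, 7.40 and 7.31 in LPS 1 to 3. All LPS samples were above all controls. The difference was 0.40 on the log2 scale, or 1.32-fold (SE 0.070, 95% interval 0.25 to 0.55, adjusted p = 0.0316, n = 3 per group), with 0.47 within set A and 0.36 within set B. These control levels are near the array medians, where a floor in the values may compress differences. The other probe sets, dimmer still at control means of 6.55 and 6.35, gave 0.15 (adjusted p = 0.554) and 0.10 (adjusted p = 0.751), so that the mean over all probe sets did not pass, at 0.22 (adjusted p = 0.0721). The adjusted p of the brightest probe set was 0.0462 without control 1, but it rose to 0.152 when control 2 was left out, to 0.113 for control 3, 0.0635 for LPS 1, 0.232 for LPS 2 and 0.0674 for LPS 3. The difference itself ran from 0.35 to 0.44 over these fits. In the set-blocked fit the adjusted p was 0.00175.

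HLA-DQB1, the beta chain of HLA-DQ, rose by 6 of its 7 probe sets. The brightest (212998_x_at) stood at 10.03, 9.62 and 9.70 in controls 1 to 3 and at 10.55, 10.42 and 10.55 in LPS 1 to 3. The lowest LPS sample lay above the highest control. The difference was 0.72 on the log2 scale, or 1.65-fold (SE 0.11, 95% interval 0.49 to 0.96, adjusted p = 0.0129). Of the 7 probe sets 5 carry the suffix _x_at, which marks probes that may also bind other transcripts, and all 5 passed. So did 209480_at, which has no such mark, at 8.77, 8.49 and 8.56 in controls and 9.34, 9.29 and 9.35 in LPS (difference 0.72, SE 0.090, adjusted p = 0.00697). The 6 that passed lay between 1.54-fold and 1.65-fold. The seventh, 210747_at, had a control level of 5.87, near the floor of the values, and gave 0.09 (adjusted p = 0.742). Within set A the 6 differences ran from 0.35 to 0.54 and within set B from 0.79 to 0.89.

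HLA-DQA1, the alpha chain of the same pair, rose by all 3 of its probe sets, none of which carries a cross-hybridisation mark. The brightest (203290_at) read 10.10, 9.79 and 9.92 in controls 1 to 3 and 10.59, 10.40 and 10.59 in LPS 1 to 3. Its difference was 0.59, or 1.5-fold (SE 0.10, 95% interval 0.37 to 0.81, adjusted p = 0.0309), with 0.39 within set A and 0.74 within set B. Probe set 213831_at gave 0.62 (adjusted p = 0.0113). The dimmest, 236203_at, read 6.81, 6.60 and 6.76 in controls and 7.48, 7.46 and 7.34 in LPS. It had the smallest p of the 30, at a difference of 0.71 (SE 0.072, adjusted p = 0.0014), with 0.66 within each set.

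Both chains of HLA-DQ thus rose. The 9 of 10 DQ probe sets that passed had differences from 0.59 to 0.72, over control levels from 6.72 to 9.94. Their calls differ in how far they rest on single arrays. Probe set 236203_at of HLA-DQA1 passed without any 1 of the 6 arrays, with adjusted p from 0.000299 to 0.0353. The brightest probe set of HLA-DQB1 passed without control 1 (adjusted p = 0.00064) and without LPS 3 (0.0362) and not without control 2 (0.0865), control 3 (0.136), LPS 1 (0.088) or LPS 2 (0.0826). Its difference ran from 0.64 to 0.85 over the 6 fits. The brightest of HLA-DQA1 passed without control 1 (0.0063) and not without control 2 (0.179), control 3 (0.222), LPS 1 (0.198), LPS 2 (0.102) or LPS 3 (0.073), with differences from 0.51 to 0.67. In the set-blocked fit the adjusted p was 8.55e-05 for HLA-DQB1 and 0.000468 for HLA-DQA1.

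**Figure D2:**
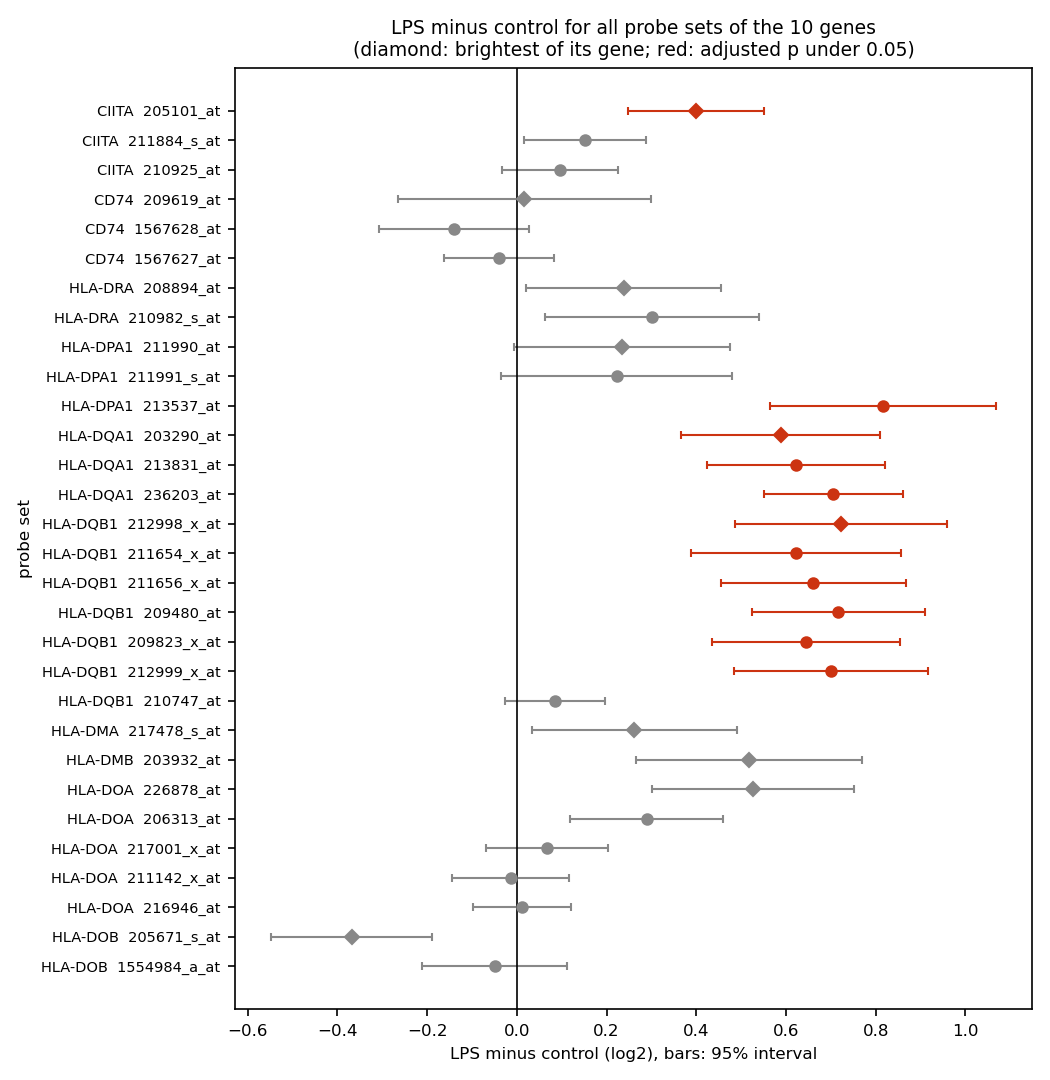
LPS minus control (log2) with its 95% interval for each of the 30 probe sets, a diamond marking the brightest of each gene and red an adjusted p under 0.05. The 11 red probe sets are all to the right of 0, and 9 of them belong to HLA-DQA1 and HLA-DQB1.

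The other classical chains gave smaller differences by their brightest probe sets. HLA-DRA, the alpha chain of HLA-DR, read 12.99, 12.89 and 12.97 in controls 1 to 3 and 13.17, 13.04 and 13.36 in LPS 1 to 3 (208894_at). The LPS samples lay above the controls, by 0.24 on average (SE 0.10, 95% interval 0.02 to 0.46, adjusted p = 0.564). Its second probe set, 210982_s_at, gave 0.30 (adjusted p = 0.471). Within set A both gave 0.11, and within set B 0.43 and 0.50. The first passed in the set-blocked fit (adjusted p = 0.0349) and the second did not (0.0599).

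HLA-DPA1, the alpha chain of HLA-DP, differed between its probe sets. The brightest, 211990_at, read 12.43, 12.23 and 12.48 in controls and 12.59, 12.44 and 12.81 in LPS, so that the groups overlapped, with a difference of 0.23 (SE 0.11, adjusted p = 0.635). Probe set 211991_s_at gave 0.22 (adjusted p = 0.693). By contrast 213537_at read 8.59, 8.03 and 8.26 in controls and 9.16, 9.12 and 9.04 in LPS. This was the largest difference among the 30 probe sets, 0.82 or 1.76-fold (SE 0.12, 95% interval 0.56 to 1.07, adjusted p = 0.00949), with 0.55 within set A and 0.90 within set B. It passed without control 1 (adjusted p = 0.000179), control 2 (0.0472) or LPS 3 (0.0204), and not without control 3 (0.113), LPS 1 (0.0569) or LPS 2 (0.1). The interval of 213537_at, from 0.56, does not overlap that of 211990_at, which ends at 0.48, and which transcripts each detects was not examined.

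**Figure D3:**
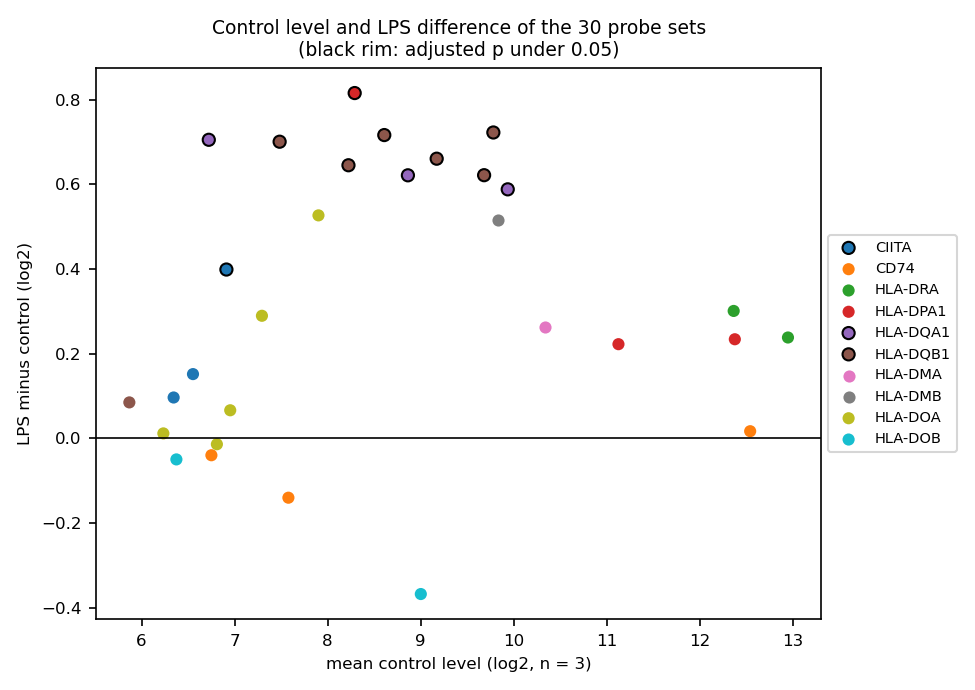
Mean control level (log2, n = 3) against LPS minus control (log2) for the 30 probe sets, coloured by gene, with a black rim where the adjusted p is under 0.05. Most called probe sets lie between control levels of 7 and 10; those at 11 or more, of HLA-DRA, HLA-DPA1 and CD74, differ by at most 0.30.

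The size of the difference varied with the probe set's level. Of 20 probe sets with a control mean of at least 7, a level chosen after the values were seen, 9 passed and the median difference was 0.52. Of the 10 dimmer ones 2 passed and the median was 0.08. Most of the 9 belong to HLA-DQA1 and HLA-DQB1, and probe sets of a gene are not independent, so level and gene cannot be told apart. Within HLA-DQA1 the dimmest probe set, at a control mean of 6.72, gave the largest difference, 0.71. Among all tested probe sets 0.713% passed at or above that level and 0.0611% below it. The probe sets with the highest levels, those of HLA-DRA, HLA-DPA1 and CD74 with control means of 11.13 to 12.95, gave 0.02 to 0.30; whether signal at that height is compressed was not tested.

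CD74, the invariant chain, read 12.73, 12.25 and 12.65 in controls 1 to 3 and 12.75, 12.39 and 12.54 in LPS 1 to 3 by its brightest probe set (209619_at). The groups overlapped throughout, and the difference was 0.02 with a 95% interval from -0.26 to 0.30 (adjusted p = 0.989). A rise as large as that of HLA-DQB1 lies outside this interval. Its other probe sets, at control means of 7.58 and 6.75, gave -0.14 (adjusted p = 0.705) and -0.04 (adjusted p = 0.920).

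HLA-DM, the peptide exchanger, had positive differences for both chains, neither past the threshold. HLA-DMB, the beta chain, read 10.09, 9.69 and 9.71 in controls 1 to 3 and 10.43, 10.19 and 10.42 in LPS 1 to 3 (203932_at). All LPS samples lay above all controls, by 0.52 on average or 1.43-fold (SE 0.12, 95% interval 0.27 to 0.77, adjusted p = 0.114). It amounted to 0.22 in set A against 0.72 in set B. The set-blocked fit gave an adjusted p of 0.00828. It also passed without control 1 (adjusted p = 0.00805). With any other array left out it did not pass, at adjusted p from 0.192 to 0.565. HLA-DMA, the alpha chain, read 10.49, 10.20 and 10.35 in controls and 10.70, 10.44 and 10.68 in LPS (217478_s_at). Its groups overlapped at a difference of 0.26 (SE 0.11, adjusted p = 0.536), with 0.08 within set A and 0.41 within set B.

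HLA-DO, the inhibitor of HLA-DM, had chains with differences of opposite sign, neither past the threshold by its brightest probe set. HLA-DOA, the alpha chain, read 8.11, 7.71 and 7.89 in controls 1 to 3 and 8.58, 8.42 and 8.28 in LPS 1 to 3 by its brightest probe set (226878_at). The LPS samples were all above the controls, by 0.53 (SE 0.10, 95% interval 0.30 to 0.75, adjusted p = 0.0578). It passed without control 1 (adjusted p = 0.00649), without LPS 3 (0.0467) and in the set-blocked fit (0.00299). It did not pass without control 2 (0.258), control 3 (0.322), LPS 1 (0.326) or LPS 2 (0.311). The mean over its probe sets gave 0.18 (adjusted p = 0.255). Its second brightest probe set, 206313_at, gave 0.29 (adjusted p = 0.229), and 3 dimmer ones, at control means of 6.23 to 6.95, gave -0.01 to 0.07.

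HLA-DOB, the beta chain, read 9.07, 9.03 and 8.92 in controls 1 to 3 and 8.64, 8.55 and 8.71 in LPS 1 to 3 (205671_s_at). Here every LPS sample was below every control. The difference was -0.37 (SE 0.084, 95% interval -0.55 to -0.19, adjusted p = 0.114), with -0.47 within set A and -0.26 within set B. The set-blocked fit called it lower (adjusted p = 0.0151). Without the block it did not pass with any array left out, at adjusted p from 0.117 to 0.514. Its other probe set, at a control mean of 6.37, gave -0.05 (adjusted p = 0.927), and the brightest carries the suffix _s_at, which marks probes shared by several transcripts. On chromosome 6 HLA-DOB lies between HLA-DQB1 and HLA-DMB in the order HLA-DRA, HLA-DQA1, HLA-DQB1, HLA-DOB, HLA-DMB, HLA-DMA, HLA-DOA, HLA-DPA1, so the lone negative difference has members with positive ones on either side.

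The LPS differences of 2 chains were then set against each other within each array, for the chains of 5 pairs and for HLA-DQB1 against HLA-DRA, 6 comparisons chosen with the differences known. Each chain was taken by its brightest probe set. Over all probe sets HLA-DQA1 gave 0.59 to 0.71 and HLA-DPA1 0.22 to 0.82, so the order within a pair can depend on that choice. The difference of HLA-DOA exceeded that of HLA-DOB by 0.89 on the log2 scale. HLA-DMB exceeded HLA-DMA by 0.25, HLA-DQB1 exceeded HLA-DQA1 by 0.13 and HLA-DQB1 exceeded HLA-DRA by 0.48. In these 4 comparisons the groups did not overlap in the quantity tested, the log2 value of one chain minus that of the other on the same array. How often the groups part in this way for other pairs of genes was not examined. HLA-DPB1 exceeded HLA-DPA1 by 0.02 and HLA-DRB1 exceeded HLA-DRA by 0.06, with overlapping groups. The exact permutation test, two-sided, gave p = 0.1 for the 4 without overlap (0.15 after adjustment over the 6), p = 0.4 for HLA-DR (adjusted 0.48) and p = 1 for HLA-DP (adjusted 1). The smallest p that 3 against 3 samples allow is 0.1, so no comparison could pass and none is shown to differ.

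**Figure D4:**
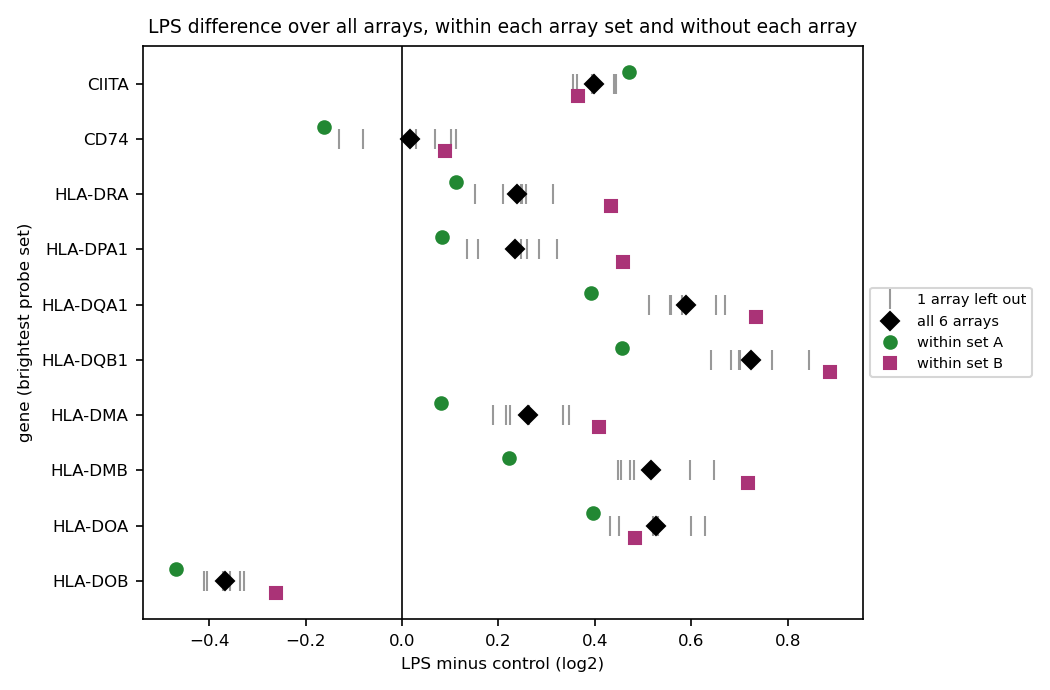
LPS minus control (log2) of the brightest probe set of each gene over all 6 arrays (black diamond), within array set A (green circle) and B (purple square) and without each array in turn (grey ticks). The value is further right in set B than in set A for 9 of the 10 genes, CIITA being the other, and CD74 alone has values on both sides of 0.

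Across the sets the 10 genes had a median difference of 0.17 within set A and 0.45 within set B. The value within set B was above that within set A in 9 of 10 genes; for HLA-DOB this meant a less negative value, and CIITA had the larger difference within set A. The difference between the sets was tested in limma with a term for group by set, which leaves 2 residual degrees of freedom and was added after these values were seen. None of the 10 genes passed (all at adjusted p = 0.994), where 0.00506% of all genes did. At an unadjusted p under 0.05 there were 5 genes, HLA-DMB, HLA-DRA, HLA-DQB1, HLA-DPA1 and HLA-DQA1, against 4.3% of all genes. For HLA-DMB the value of set B exceeded that of set A by 0.50 (95% interval 0.15 to 0.84, unadjusted p = 0.00659 in limma). Control 1, alone of its group in set A, weighed on the counts: 5 of the 10 genes passed when it was left out, and 2 when LPS 3 was. None passed when control 2, control 3, LPS 1 or LPS 2 was the array left out. The whole table moved likewise. Of all tested probe sets 144 passed in the main fit, 374 without control 1 and 120 without LPS 3. Without control 2, control 3, LPS 1 and LPS 2 the numbers were 46, 14, 44 and 10. In the set-blocked fit without control 1, set A holds no control, so the difference rests on LPS 3 against the controls of set B. It was then 0.36 for CIITA, 0.89 for HLA-DQB1 and 0.72 for HLA-DMB, as within set B. In set-blocked fits 5 to 9 of the 10 genes passed for control 2, control 3, LPS 1 or LPS 2 left out, where 397 to 744 of all tested probe sets did. For LPS 3, the single LPS array of set B, 0 of the 10 genes and 102 of all tested probe sets passed.

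Further class II genes were read from a list of the pathway drawn up from general knowledge, of which 66 of 73 genes were measured. By limma's test none of the 66 passed and 16 had an unadjusted p under 0.05, which 9.56% of all genes had. In the set-blocked fit 6 of them passed, where 2.02% of all genes did. The median difference over the list was 0.03. The 6 measured further class II chains and pseudogenes all had positive differences, with a median of 0.19 and a range from 0.08 to 0.30. Of these, HLA-DPB2, HLA-DRB4 and HLA-DQB2 had control means of 6.12, 6.65 and 6.72, near the array medians. HLA-DRB1, the main beta chain of HLA-DR, gave 0.30 (208306_x_at; adjusted p = 0.458) and the pseudogene HLA-DRB6 0.23 (217362_x_at; adjusted p = 0.42), both on probe sets marked for cross-hybridisation. HLA-DPB1, the partner of HLA-DPA1, gave 0.26 (adjusted p = 0.607).

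Of the 10 DNA-binding partners of CIITA and their cofactors, RFX5 had the largest difference. This subunit of the RFX complex on the X box read 11.16, 10.93 and 11.19 in controls 1 to 3 and 11.54, 11.38 and 11.54 in LPS 1 to 3, without overlap. Its difference was 0.39 (SE 0.10, adjusted p = 0.186; 0.00924 in the set-blocked fit), and its other probe set gave 0.39 (adjusted p = 0.43). The acetyltransferase KAT2B gave 0.25 (adjusted p = 0.453). The other RFX subunits, RFXANK and RFXAP, gave -0.13 and -0.04, and the NF-Y subunits NFYA, NFYB and NFYC 0.06, -0.02 and 0.05, with adjusted p of 0.792 or more.

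Among the 13 measured factors that act on the CIITA gene, IRF4, a B cell factor that rises towards the plasma cell stage, gave the largest positive value. IRF8, an interferon regulatory factor of germinal centre cells, gave the lowest value, -0.43 (adjusted p = 0.13). It read 10.92, 11.11 and 11.11 in controls and 10.64, 10.49 and 10.73 in LPS, all below the controls. IRF4 read 10.44, 9.99 and 10.30 in controls and 10.98, 10.84 and 10.64 in LPS, a difference of 0.58 (adjusted p = 0.0852). PRDM1, which encodes the plasma cell repressor of CIITA known as Blimp-1, gave 0.06 (adjusted p = 0.91) at a control level of 7.06. In the set-blocked fit IRF4 and IRF8 passed, as did the germinal centre repressor BCL6 (-0.31, adjusted p = 0.321 without the block) and the forkhead factor FOXP1 (-0.29, adjusted p = 0.527 without the block).

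The machinery that trims and carries class II molecules had medians near 0. The 15 measured endosomal proteases, their inhibitors and related genes had a median of 0.03 and ran from -0.05 to 0.27. CTSB (0.27, adjusted p = 0.496) and CTSH (0.24, adjusted p = 0.507), both lysosomal cathepsins, had the smallest p, and CTSS, the cathepsin that makes the late cuts in CD74 in B cells, gave -0.05 (adjusted p = 0.936). The 20 measured genes of trafficking, ubiquitination and membrane partners had a median of -0.02. The tetraspanin CD37 read 10.90, 10.74 and 10.77 in controls and 10.53, 10.31 and 10.46 in LPS, a difference of -0.37 (adjusted p = 0.191; 0.00905 in the set-blocked fit). The related CD82 gave 0.24 (adjusted p = 0.421) on a probe set marked for cross-hybridisation. CD4 and LAG3, T cell receptors for class II molecules, stood at control levels of 6.76 and 6.37, with differences of 0.07 and 0.02.

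**Figure D5:**
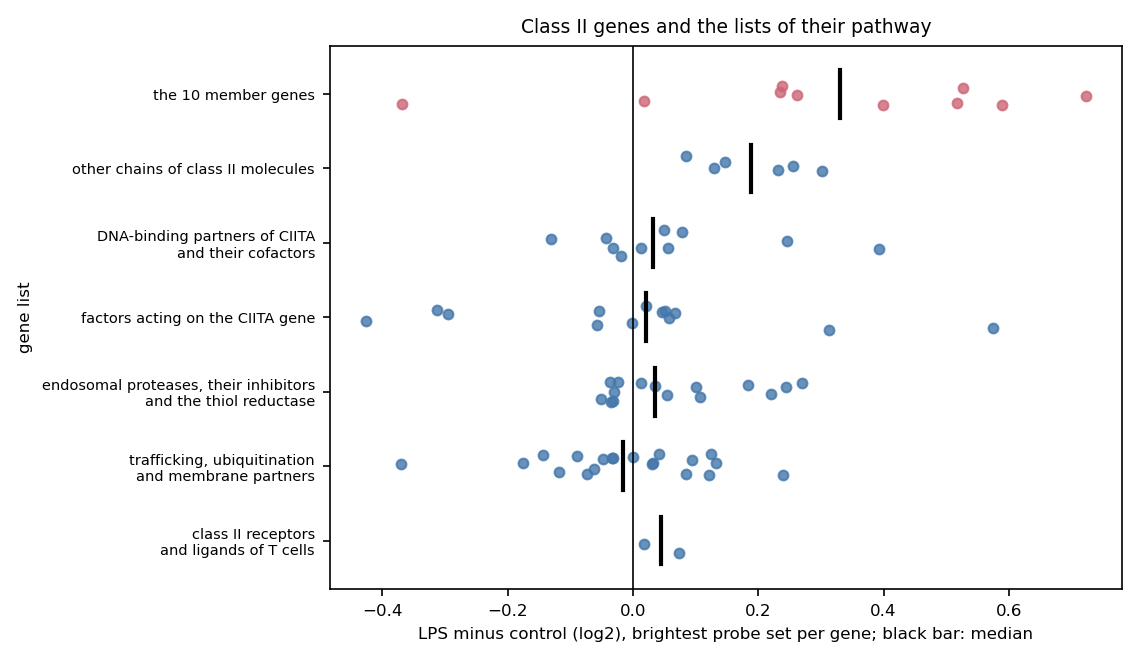
LPS minus control (log2) of the brightest probe set of each gene, for the 10 member genes (red) and for the 6 lists of their pathway (blue), with the median of each as a black bar. The median of the members is 0.33 and that of the further class II chains 0.19, and the other lists have medians from -0.02 to 0.05.

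The genes most like CIITA over the 6 arrays were found by Pearson correlation of brightest probe sets among 12653 genes above the median level. They were PWWP2A (r = 0.997), LSM11 (r = 0.994), FOXN3 (r = 0.985), TNFSF4 (r = 0.982) and EIF3A (r = 0.981), given as a description over 6 arrays that include both groups. Only TNFSF4, the ligand OX40L, passed the test among these, with a rise of 0.38 (adjusted p = 0.0272), and the other 4 had differences from 0.16 to 0.24. The class II genes were less like CIITA, with r = 0.816 for HLA-DQB1, 0.813 for HLA-DQA1, 0.753 for HLA-DOA and 0.682 for HLA-DMB. In that order they ranked 499, 510, 815 and 1238 among the 12653 genes. HLA-DRA had r = 0.665, HLA-DPA1 0.594, HLA-DMA 0.556 and CD74 -0.11. HLA-DOB stood at the other end, with r = -0.973. All points share the same 6 arrays, and the step between the groups enters every r.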

How the data were processed

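The deposited table of the authors holds 1 value per probe set and array, taken here as log2 because values of tested probe sets lie between 5.46 and 14.81; their background correction, summary and normalisation: not given in the sources used here. Per the labels, RNA was column-purified and biotin-labelled by in vitro transcription. Left out were 62 Affymetrix control probe sets, which leaves 54613. Symbols came from the platform annotation, updated by gene identifier with RefSeq (GRCh38.p14). The probe set with the highest mean over the 6 arrays stands for its gene. The fit was limma 3.58.1 in R 4.3.3 (lmFit, eBayes with intensity trend, group as only term), two-sided; p-values were adjusted by Benjamini-Hochberg over the whole table, calls are at 0.05, and intervals are 95% intervals. The steps were tested on simulated arrays. The number of arrays limits the precision (median SE of a difference 0.063).

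The members, lists and alternatives were chosen with earlier results of these data known. Named were all members, the pathway genes past the threshold, the pair with the smallest p in each role, and the 5 genes most like CIITA; further names were chosen after their values were seen. Replicate numbers were not used to pair the samples in the main fit. Deviations of same-numbered arrays correlated at 0.44, -0.04 and 0.23, where 0.1 was required of each. With so few arrays this cutoff cannot exclude pairing. The value of -0.04 belongs to control 2 of set B and LPS 2 of set A, while the other same-numbered arrays share a set. Pairing and array set therefore cannot be told apart here.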

Additional observations from a re-analysis of the deposited data

How the results depend on the processing

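The counts of calls moved with the processing, while the direction of 9 of the 10 genes did not change in any alternative. CD74, near 0, turned negative with array set as a block (-0.036), with quantile normalisation (-3.27e-05), with the mean over its probe sets (-0.054), without control 2 (-0.13, and -0.14 with the block), without LPS 1 (-0.08, and -0.097 with the block) and without LPS 3 with the block (-0.16), and its highest value was 0.11, without control 1. Main counts were 144 of all probe sets, 11 member probe sets, 3 member genes and 0 pathway genes. In the same order, all probe sets, member genes and pathway genes passing numbered 734, 7 and 6 with array set as a block, 292, 5 and 5 with quantile normalisation, and 309, 5 and 2 with array weights; member probe sets stayed between 13 and 15. A robust variance prior gave 1 pathway gene. Without _x_at and _s_at probe sets 82 of all probe sets and 6 member probe sets passed; HLA-DMA then has no probe set, and HLA-DOB is left with the dim one, at -0.05. Samples share only a replicate number, and with that number as a replicate block 498 of all probe sets, 14 member probe sets, 6 member genes and 4 pathway genes passed. Of the 3 controls 2 correlated best with the LPS sample of their own number. Leaving out each array in turn gave 10 to 374 of all probe sets, 1 to 13 member probe sets, 0 to 5 member genes and 0 to 2 pathway genes. With array set as a block as well, these were 102 to 744 (397 without LPS 1, 629 without control 3, 695 without LPS 2), 2 to 18, 0 to 9 and 0 to 7. The causes were not tested, beyond the smaller number of arrays in the fits that leave one out. Median centring, a filter on dim probe sets and a fit without the intensity trend kept all 4 counts within 1.5 times. Probe sets near the floor of the values, among them 10 of the 30 with control means under 7, limit what can be seen.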

Other observations

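The 4 probe sets that name a member together with other class II genes entered no comparison of the report. A probe set shared by HLA-DQA1 and HLA-DQA2 (212671_s_at) read 10.69, 10.42 and 10.59 in controls 1 to 3 and 11.22, 11.00 and 11.28 in LPS 1 to 3, a difference of 0.60 (adjusted p = 0.0323). One shared by HLA-DQB1 and 5 HLA-DRB genes (221491_x_at) read 8.93, 8.34 and 8.39 in controls and 9.67, 9.45 and 9.40 in LPS, a difference of 0.95 (adjusted p = 0.00937). The others, shared by HLA-DQB1 and HLA-DRB genes at control means of 12.49 and 12.22, gave 0.34 (adjusted p = 0.399) and 0.40 (adjusted p = 0.222). In all 4 the LPS values lay above all controls.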
